A study of Mus musculus with 14 samples.

Results

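The antigen receptor of B cells and the proteins that act next to it in the membrane and cytosol were followed through their transcripts. The 9 genes were chosen by name: the receptor's signalling chains Cd79a and Cd79b, the inhibitory coreceptors Cd22 and Cd72, the kinases Lyn, Syk and Btk, the adaptor Blnk and the phospholipase Plcg2. They are 9 of the 39179 gene IDs in the count tables, and all 9 were among the 12630 genes that had enough counts to be tested. RNA-seq counts came from splenic follicular B cells, the mature recirculating subset, isolated from C57BL/6 mice with a magnetic bead kit. The 7 groups were wild type cells (wt) at 0h, 6h and 27h, cells with the genotype crel-/- (cko) at 0h and 6h, and cells with the genotype relb-/-crel-/- (dbko) at 0h and 6h. BAFF, the cytokine on which mature B cells depend for survival, was given at 50 ng per ml in every culture. Rel, which encodes c-Rel, and Relb are subunits of the transcription factor NF-kB, and the series addresses their joint part in B cell survival and development. Whether the alleles are germline deletions and how many animals gave each library are not given in the labels.

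Each group held 2 libraries, with 10497802 to 11888765 gene counts per library, replicate 1 from lane 7 and replicate 2 from lane 8. The labels do not say whether the libraries of a group stem from different animals, and p-values here measure the spread between these libraries, which may be technical. The labels give no culture without BAFF, so BAFF and time in culture cannot be told apart. Rel had 633 and 620.3 CPM (library-size-scaled counts, with sizes adjusted by TMM) in wt at 0h, against 58.3 and 52.4 in cko and 40.0 and 52.3 in dbko. Relb had 115 and 117 CPM in the wt 0h libraries and was lower but still counted in dbko, at 52.9 and 65.6, and the labels do not say which part of the gene was removed. The B cell markers Ms4a1 and Pax5 lay at 720.0 to 1950.0 and 124 to 294 CPM over the 14 libraries. Of 8 T cell genes listed, Cd3e, Cd3d, Cd3g, Cd4 and Trac reached at most 0.183, 0.423, 0.312, 0.647 and 1.8 CPM. Cd5 reached 6.64 CPM and Cd8a 20.6, and Lck lay at 34.6 to 95.8. The dbko libraries held more transcripts of erythroid cells and of macrophages and monocytes, and at 0h also of dendritic cells and neutrophils. The summed level of 8 erythroid genes (of 9 listed) was 1060.0 and 521 CPM in dbko at 0h against 11.7 and 12.2 in wt and 54.3 and 57.3 in cko, with 8 of 8 higher in dbko than in wt. That of 10 genes of macrophages and monocytes was 193 and 126 CPM against 96.1 and 105 in wt and 43.1 and 41.5 in cko, with 2 of the 9 tested higher in dbko than in wt. At 6h the macrophage and monocyte sum was 206 and 87.5 CPM in dbko, 37.5 and 35.1 in wt and 31.1 and 29.7 in cko, where Fcgr1 was at 0 in both libraries. Sums of 7 dendritic cell genes at 0h were 94.2 and 91.2 CPM in dbko against 33.95 and 32.8 in wt. Of the 6 tested, 5 were higher in dbko at 0h, and at 6h 3 were higher and 2 lower. Sums of 7 neutrophil genes at 0h were 10.4 and 6.7 CPM in dbko against 1.46 and 2.03 in wt, with 1 of 3 tested higher. In bulk RNA, fewer cells of a type and less RNA per cell cannot be told apart.

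The receptor pairs a membrane immunoglobulin, which binds antigen, with CD79A and CD79B, whose cytoplasmic tails carry the tyrosine motifs through which it signals. Lyn phosphorylates these motifs, Syk binds them and is activated, and the adaptor BLNK then brings Btk and phospholipase C gamma 2 together, which leads to calcium release and to activation of protein kinase C beta and NF-kB. CD22 and CD72 carry inhibitory motifs that recruit the phosphatase SHP-1, and Lyn, which phosphorylates those too, takes part in both activation and inhibition.

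The 250 bases before the transcription start are shown for 3 of the genes, Cd72, Plcg2 and Btk, because these differed in level between genotypes at 6h. The sequences are RefSeq's, for GRCm38.p6, and 7 of the 9 genes had an entry. Capitals mark matches, on either strand, to 4 short motifs: GGG and CC with any 5 bases between them, a loose form of the NF-kB site, TTTGCAT, part of the octamer bound by Oct factors, CCCNNGGG, a core of the EBF site, and GAGGAA, a core of the PU.1 site.
Cd72: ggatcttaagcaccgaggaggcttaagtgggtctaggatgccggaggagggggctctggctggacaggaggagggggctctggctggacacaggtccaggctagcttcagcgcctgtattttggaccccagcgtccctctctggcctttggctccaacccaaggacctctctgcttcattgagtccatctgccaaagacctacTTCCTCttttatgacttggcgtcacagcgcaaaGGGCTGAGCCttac
Plcg2: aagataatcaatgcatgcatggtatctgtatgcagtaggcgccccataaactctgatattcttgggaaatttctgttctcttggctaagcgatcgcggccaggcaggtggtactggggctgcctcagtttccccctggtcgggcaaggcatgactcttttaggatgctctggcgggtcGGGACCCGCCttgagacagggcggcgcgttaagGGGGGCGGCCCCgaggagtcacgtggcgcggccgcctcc
Btk: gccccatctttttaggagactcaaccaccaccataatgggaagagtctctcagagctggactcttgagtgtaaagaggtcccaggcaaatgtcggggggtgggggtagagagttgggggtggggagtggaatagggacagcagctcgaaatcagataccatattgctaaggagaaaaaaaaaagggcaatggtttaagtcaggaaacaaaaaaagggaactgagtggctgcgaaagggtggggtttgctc
The Cd72 window is chr4:43454627-43454876 on the minus strand, with 1 match of the loose NF-kB motif 14 bases before the start and 1 of the PU.1 core 47 bases before it. The Plcg2 window, chr8:117498025-117498274 on the plus strand, had 4 matches of the loose NF-kB motif, at 72, 39, 38 and 37 bases before the start, of which the last 3 overlap one another. The Btk window, chrX:134583141-134583390 on the minus strand, held none of the 4 motifs. In GENCODE M21, used here for gene positions, Btk starts at 134583570 on this strand. By that annotation the Btk window lies inside the gene, outside its exons, and not before its start. The loose NF-kB motif was present in 45.8% of the 32851 windows of this length and in windows of 4 of the 7 genes, the PU.1 core in 23.3% and 3 of 7, the EBF core in 11.8% and 1 of 7, and the octamer part in 4.12% and 1 of 7. The shares are per window and the counts per gene, and Syk had more than 1 window. The Cd79a window had 116 of its 250 bases in GENCODE exons, and the Syk window with the loose NF-kB match had all 250. A match is a string of letters and shows no binding.

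Over 6h with BAFF, most of the receptor's signalling genes fell in wild type B cells. Of the 9 genes 6 fell (Cd79a, Cd22, Syk, Lyn, Blnk and Plcg2) and 0 rose at an adjusted p under 0.05 (edgeR's quasi-likelihood test with Benjamini-Hochberg adjustment over all genes tested), against a background of 46.2% of all genes called. The median log2 change was -0.67 over the 9 genes and 0.00 over all genes tested. Markers of cell types moved too: 6 of 7 follicular B cell genes were lower at 6h (sums of 7098 and 7212 CPM at 0h against 3841 and 3768), as were 7 of 9 genes of macrophages and monocytes and 3 of 6 of marginal zone B cells (1317 and 1312 against 668 and 685 CPM). Of 4 genes of transitional and immature B cells tested 2 were higher and 2 lower, with sums of 1122 and 1135 CPM at 0h and 400.4 and 468 at 6h. Follicular B cell genes were also lower in cko (7 of 7) and dbko (6 of 7). The part of these cell types in the falls was not tested. In cko 5 fell (Cd79a, Cd22, Syk, Lyn and Plcg2) and 1 rose, Btk, where 41.9% of all genes were called. In dbko 4 fell (Cd79a, Cd22, Syk and Lyn) and 1 rose, Btk, with 39.6% of all genes called. A fit to the 4 dbko libraries alone called 0 of the 9, with adjusted p-values of 0.0508 (Btk) to 0.302 (Lyn) for these 5 and changes of like size. Calls fell for all genes in that fit, to 1323 genes from 5004 in the fit to all groups.

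**Figure D1:**
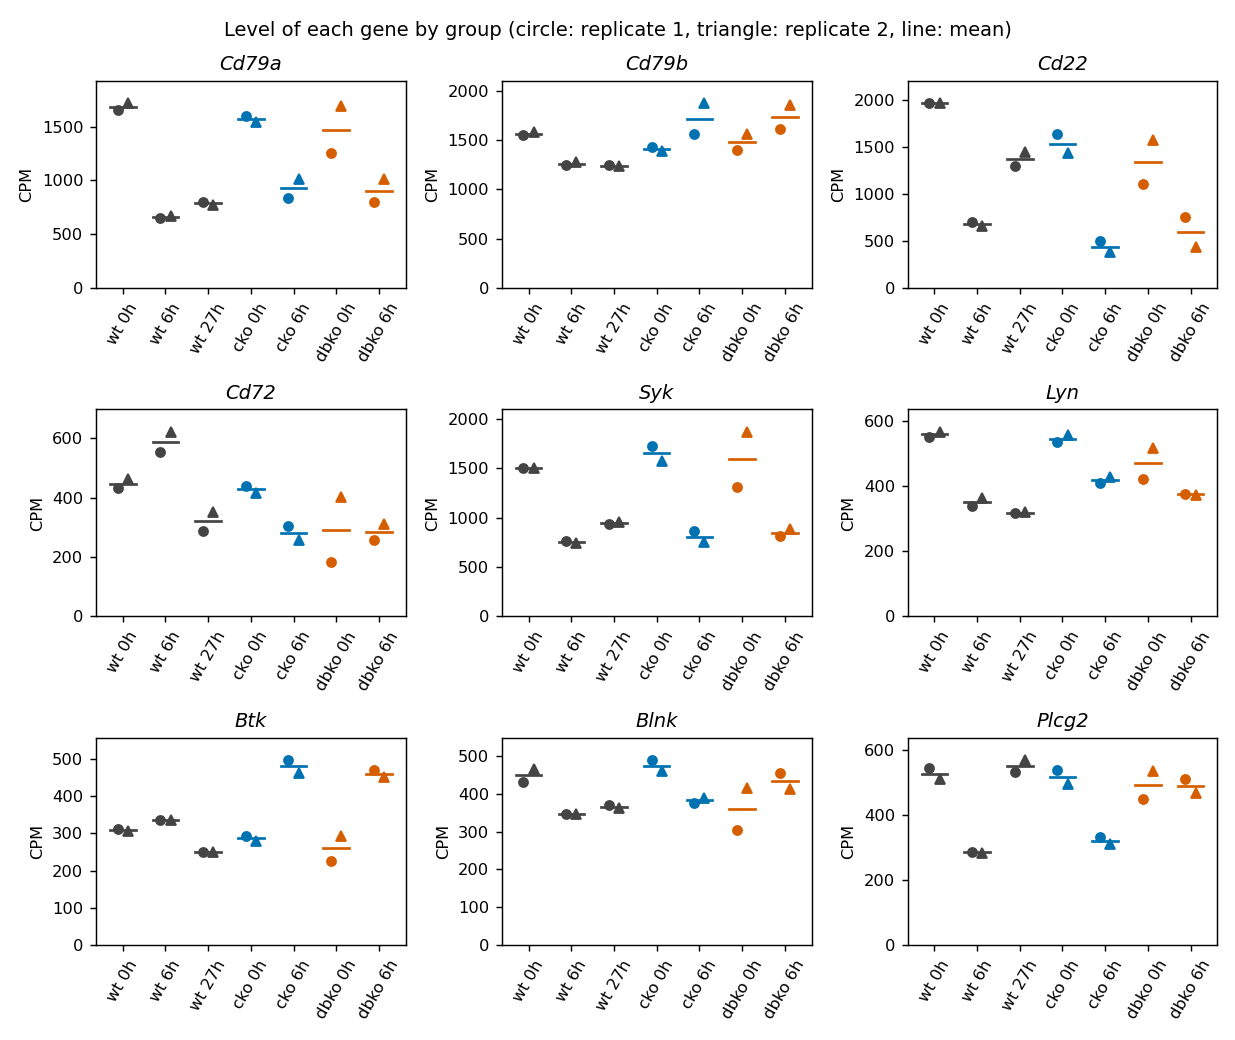
Level in CPM of each of the 9 genes (vertical axis, linear from 0) in each of the 7 groups (horizontal axis), with circles for replicate 1, triangles for replicate 2 and a line at the mean. Cd79a, Cd22 and Syk lay lower at 6h than at 0h in every genotype, Plcg2 lay lower in wt and cko but not in dbko, and Btk lay higher in cko and dbko.

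Cd79a and Cd79b encode the paired signalling chains of the receptor. Cd79a (ENSMUSG00000003379, chr7:24897381-24902197, plus strand) had levels of 1653 and 1718 CPM in wt at 0h, then 647 and 671 at 6h, then 799 and 774 at 27h. In the knockouts it went from 1602 and 1541 to 838 and 1014 CPM over 6h (cko) and from 1255 and 1688 to 801 and 1011 (dbko). In each genotype the 6h libraries lay below both 0h libraries. The change over 6h was -1.36 ± 0.16 (log2 ± SE) in wt, with an adjusted p of 3.81e-05 and a 2.56-fold lower level. It was -0.76 ± 0.16 in cko (adjusted p = 0.00224) and -0.70 ± 0.16 in dbko (adjusted p = 0.0041), and all 3 calls held with any 1 library of the compared groups left out. At 27h Cd79a was still below its 0h level in wt, by a log2 difference of -1.10 ± 0.16 (adjusted p = 0.000149).

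Cd79b (ENSMUSG00000040592, chr11:106311341-106314762, minus strand) moved much less. Wild type levels were 1548 and 1579 CPM at 0h, then 1246 and 1276 at 6h, then 1242 and 1237 at 27h. In the knockouts it went from 1429 and 1393 to 1560.1 and 1873 CPM over 6h (cko) and from 1395 and 1558 to 1613 and 1851 (dbko). The wt libraries at 6h and 27h lay below those at 0h, while the cko and dbko libraries at 6h lay above their own 0h libraries. No 6h change passed the test: it was -0.31 ± 0.13 in wt (adjusted p = 0.0637), 0.28 ± 0.13 in cko (0.0943) and 0.23 ± 0.13 in dbko (0.17). A fit to the 4 wt libraries at 0h and 6h alone did call the fall in wt (adjusted p = 0.000873), as did DESeq2 (0.0185). The difference of -0.34 ± 0.13 between 27h and 0h in wt passed at an adjusted p of 0.0463 but did not pass with any 1 of the 4 libraries left out (0.134 to 0.17) or with no filter on low counts (0.0746).

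Set against exon length, the chains were about level at 0h and apart at 6h. The ratio of Cd79a to Cd79b, each in CPM per kilobase of exon, was 1.049 and 1.069 in wt at 0h, 0.51 and 0.516 at 6h, and 0.632 and 0.615 at 27h. It was 1.101 and 1.087 in cko at 0h and 0.528 and 0.532 at 6h. In dbko it was 0.884 and 1.064 at 0h and 0.488 and 0.536 at 6h. Every 6h and 27h library had a lower ratio than every 0h library, and at 6h the dbko libraries bracketed those of wt and cko, although both transcripts stood higher in every cko and dbko library than in the wt libraries.

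**Figure D2:**
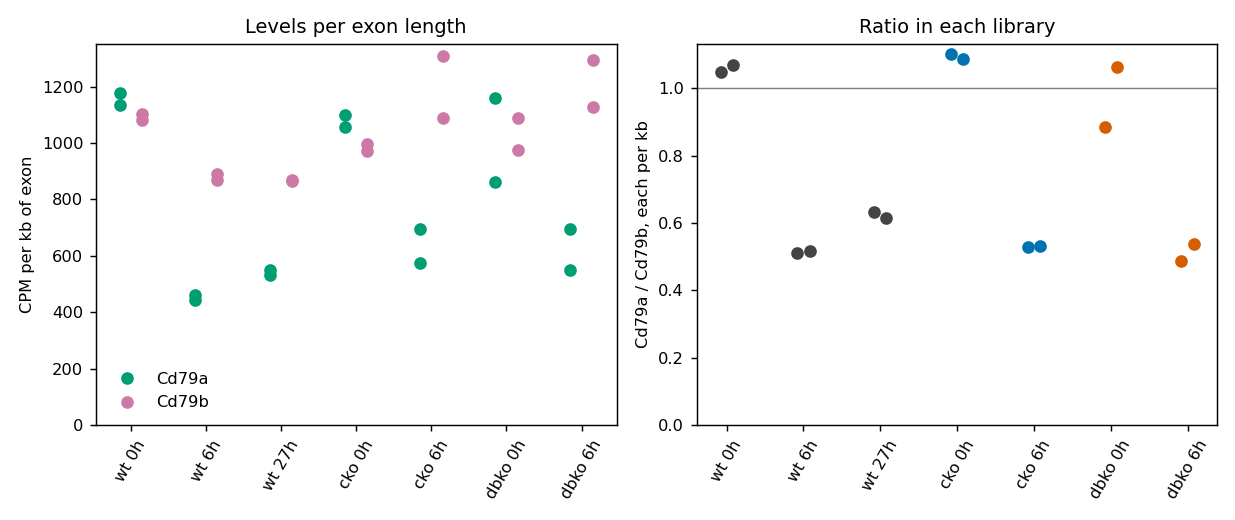
Left, levels of Cd79a and Cd79b in CPM per kilobase of exon for each library by group; right, the ratio of the first to the second in each library, with a line at a ratio of 1. The ratio was 0.884 to 1.101 in the 0h libraries and 0.488 to 0.536 in the 6h libraries, with wt at 27h at 0.632 and 0.615.

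Of the inhibitory coreceptors, Cd22 fell over 6h in each genotype, while no 6h change of Cd72 passed the test. Cd22 (ENSMUSG00000030577, chr7:30865402-30880342, minus strand), a lectin that binds sialic acid and dampens receptor signalling, had the widest range of the 9 genes, with a 4.49-fold difference between its highest and lowest group means. In wt its levels were 1965 and 1965 CPM at 0h, then 697 and 663 at 6h, then 1299.7 and 1448 at 27h. It fell over 6h by 1.53 ± 0.24 on the log2 scale in wt (adjusted p = 0.000268) and was higher again at 27h than at 6h, by 1.01 ± 0.23 (adjusted p = 0.00607, and 0.0523 without wt replicate 2 at 6h). In cko it went from 1633 and 1440.0 CPM to 495 and 379.6, a log2 change of -1.81 ± 0.24 (adjusted p = 9.35e-05). In dbko it went from 1107 and 1569.5 CPM to 758 and 438, a log2 change of -1.16 ± 0.23 (adjusted p = 0.00197), and the change was -0.55 between the replicate 1 libraries and -1.84 between the replicate 2 libraries. The 6h libraries lay below the 0h libraries in each genotype, and the 2 dbko libraries lay far apart at both times.

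Cd72 (ENSMUSG00000028459, chr4:43446462-43454628, minus strand) is a lectin-like coreceptor. In wt its levels were 431 and 464 CPM at 0h, then 554 and 623 at 6h, then 288 and 353 at 27h. Over 6h they went from 441 and 416 to 304 and 259 CPM in cko and from 184 and 401 to 258 and 310.1 in dbko. The wt libraries were highest at 6h, the cko libraries were lower at 6h than at 0h, and the dbko libraries at 6h lay between the 2 dbko libraries at 0h. The 6h change missed the test in each genotype: 0.39 ± 0.27 in wt (adjusted p = 0.259, and 0.00012 in a fit to the 4 libraries alone), -0.61 ± 0.27 in cko (0.0955) and -0.04 ± 0.27 in dbko (0.917). The fall in cko was called in a fit to its 4 libraries alone (0.0026), by DESeq2 (0.0261) and with no filter on low counts (7.35e-05). It was not called with DESeq2 size factors or with a block for the replicate number. With 1 library left out, the 6h change in cko ran from -0.73 to -0.50. In dbko it turned with the 0h library used, to -0.52 (adjusted p = 0.0278) without replicate 1 at 0h and to 0.63 (adjusted p = 0.0137) without replicate 2 at 0h. From 6h to 27h in wt Cd72 fell by 0.88 ± 0.27 (adjusted p = 0.0286), a call that did not hold with any 1 of the 4 libraries left out (0.0703 to 0.179). Of its 3422 exon bases, 1423 are shared with Tesk1 on the other strand, and no source used here says whether counting used strand, so reads of the 2 genes may not be separated. Tesk1 had 78.3 and 78.6 CPM in wt at 0h, then 120.4 and 136 at 6h, then 62.1 and 54.8 at 27h, and fell from 6h to 27h as well (-1.13 ± 0.27, adjusted p = 0.00881). At 6h Tesk1 was at 76.3 and 111 CPM in cko and 57.1 and 105 in dbko. It lay below wt there by log2 differences of -0.452 ± 0.265 (cko, adjusted p = 0.417) and -0.656 ± 0.266 (dbko, 0.0921), neither called.

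Of the kinases, Syk and Lyn fell over 6h and Btk did not. Syk (ENSMUSG00000021457, chr13:52583173-52648792, plus strand) binds the phosphorylated tails of the receptor. Its wt levels were 1496 and 1502 CPM at 0h, then 761 and 744 at 6h, then 936 and 956 at 27h. In the knockouts it went from 1722 and 1575 to 859.6 and 752 CPM over 6h (cko) and from 1307 and 1868 to 817 and 879.8 (dbko). Every 6h library lay below every 0h library, and at 6h the cko libraries overlapped those of wt and of dbko. The log2 change over 6h was -0.99 ± 0.15 in wt (adjusted p = 0.000258), -1.03 ± 0.15 in cko (0.000218) and -0.90 ± 0.15 in dbko (0.000597). These 3 calls held with any 1 library left out, and Syk was still lower at 27h than at 0h in wt, by -0.66 ± 0.15 (adjusted p = 0.00359).

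Lyn (ENSMUSG00000042228, chr4:3678115-3813122, plus strand), the Src family kinase at the head of the cascade, had 549.5 and 566 CPM in wt at 0h, then 337 and 362 at 6h, then 316 and 319.7 at 27h. It went from 535 and 555 to 409.5 and 428 CPM over 6h in cko, and from 422 and 516 to 375 and 374 in dbko. Every 6h library lay below the 0h libraries of its own genotype, with the largest gap in wt. The log2 change over 6h was -0.67 ± 0.11 in wt (adjusted p = 0.000451), a call that held with any 1 library left out. It was -0.38 ± 0.11 in cko (adjusted p = 0.0172) and -0.33 ± 0.11 in dbko (adjusted p = 0.0371). The cko call ended without replicate 1 or 2 at 0h or replicate 1 at 6h (0.0578, 0.0963 and 0.0726), and the dbko call without replicate 2 at 0h or replicate 1 or 2 at 6h (0.233, 0.0847 and 0.0943) or with no filter on low counts (0.0552). Whether Lyn fell less in cko or dbko than in wt was not settled, at adjusted p-values of 0.392 and 0.17 for the difference in change. At 27h in wt the difference from 0h was -0.81 ± 0.11 (adjusted p = 0.000108).

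Btk (ENSMUSG00000031264, chrX:134542336-134583570, minus strand), the Tec family kinase that activates phospholipase C gamma 2, was the only one of the 9 genes called higher over 6h in any genotype. Its wt levels were 312 and 305 CPM at 0h, then 336 and 336 at 6h, then 251 and 249 at 27h. In the knockouts it went from 294 and 280.2 to 497 and 463 CPM over 6h (cko) and from 227 and 293 to 469 and 451 (dbko). The 4 knockout libraries at 6h lay above every other library. The log2 change over 6h was 0.74 ± 0.12 in cko (adjusted p = 0.000387) and 0.82 ± 0.12 in dbko (adjusted p = 0.000207), and both calls held with any 1 library left out. In wt it was 0.12 ± 0.12 (adjusted p = 0.429, 95% interval -0.14 to 0.38). From 6h to 27h in wt Btk fell by 0.43 ± 0.12 (adjusted p = 0.0168), which was no longer called with any 1 of the 4 libraries left out (0.0849 to 0.0959).

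Downstream of the kinases, the adaptor Blnk (ENSMUSG00000061132, chr19:40928927-40994535, minus strand) had the narrowest range of the 9 genes, 1.37-fold between group means. Its wt levels were 430.5 and 466 CPM at 0h, then 347 and 346 at 6h, then 369.9 and 362 at 27h. It went from 489 and 459 to 376 and 389 CPM over 6h in cko, and from 304 and 416 to 456 and 414 in dbko. The 6h libraries lay below the 0h libraries in wt and cko, and overlapped them in dbko. The wt change of -0.37 ± 0.14 passed at an adjusted p of 0.0394 and did not pass with any 1 of the 4 libraries left out (0.0817 to 0.196). The changes of -0.31 ± 0.14 in cko (adjusted p = 0.087) and 0.27 ± 0.14 in dbko (0.129) did not pass.

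Plcg2 (ENSMUSG00000034330, chr8:117498291-117635142, plus strand) encodes the phospholipase whose products release calcium and activate protein kinase C. Its wt levels were 544 and 511 CPM at 0h, then 287 and 284 at 6h, then 534 and 569.6 at 27h. It went from 539 and 495 to 333 and 311 CPM over 6h in cko, and from 450.3 and 538 to 511 and 469 in dbko. The wt and cko libraries at 6h lay below every other library, and the dbko libraries at 6h lay within the range of the dbko libraries at 0h. Plcg2 fell over 6h by 0.89 ± 0.12 on the log2 scale in wt (adjusted p = 8.45e-05) and by 0.68 ± 0.12 in cko (0.000585), and in wt it was higher at 27h than at 6h by 0.95 ± 0.12 (0.000115). These 3 calls held with any 1 library left out. In dbko the change was -0.01 ± 0.12 (adjusted p = 0.943), with a 95% interval of -0.27 to 0.24.

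**Figure D3:**
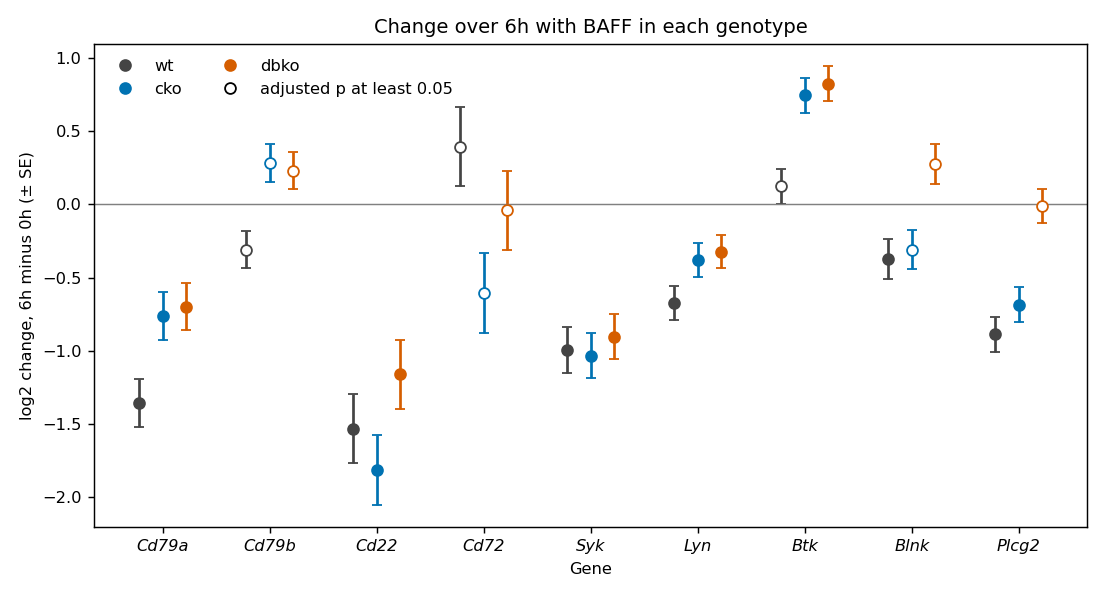
Log2 change from 0h to 6h with BAFF for each gene (horizontal axis) in wt, cko and dbko, with bars of 1 SE; filled points passed an adjusted p under 0.05 and open points did not. Syk changed by -0.90 to -1.03 in the 3 genotypes, Btk by 0.12 in wt against 0.74 in cko and 0.82 in dbko, and Plcg2 by -0.89 in wt, -0.68 in cko and -0.01 in dbko.

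At 27h in wild type cells Plcg2 was back near its 0h level, and Cd22 lay between its 6h and 0h levels. From 6h to 27h 2 of the 9 rose (Cd22 and Plcg2) and 2 fell (Cd72 and Btk), with 34.1% of all genes called, and with 1 library left out 1 or 2 of these 4 calls remained. Between 27h and 0h 4 were lower (Cd79a, Cd79b, Syk and Lyn) and 0 higher, a share of 44.4% against 47.6% of all genes, and the Cd79b call was lost with any 1 library left out. Plcg2 differed from its 0h level by 0.06 ± 0.12 (adjusted p = 0.676, 95% interval -0.19 to 0.32), and Cd22 by -0.52 ± 0.23 (adjusted p = 0.0862). Both Cd22 libraries at 27h lay under both at 0h, and the difference was called by DESeq2 (0.04), with no filter on low counts (0.00261) and in a fit to these 4 libraries alone (8.72e-09), which also called Cd72, Btk and Blnk lower. The Cd22 difference was not called with a block for the replicate number, and with 1 library left out it ran from -0.60 to -0.44. The 27h comparisons share their wt libraries with each other and with the 6h comparison, and the knockouts were not cultured for 27h.

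At 0h the 9 genes did not pass the test in any pair of genotypes. Between cko and wt at 0h, 0 of 9 were called, 0 had an unadjusted p under 0.05 and DESeq2 called 0, with 1.5% of all genes called. The largest log2 difference there was that of Cd22, -0.36 ± 0.23. Between dbko and wt at 0h, 0 of 9 were called and DESeq2 called 0, while 4 had an unadjusted p under 0.05 (Cd22, Cd72, Lyn and Blnk, all lower in dbko) and 11.7% of all genes were called. Between dbko and cko at 0h, 0 of 9 were called, 1 had an unadjusted p under 0.05 (Blnk), DESeq2 called 1, and 9.03% of all genes were called. The 2 dbko libraries at 0h stood apart: replicate 1 was the lower for each of the 9 genes, at 6650.7 CPM summed over them against 8847.3 for replicate 2 and 8928.3 and 9076.3 in wt. Without dbko replicate 2 at 0h, the log2 difference of dbko from wt was -0.831 for Cd22, -1.288 for Cd72 and -0.405 for Lyn. It was -0.446 for Btk and -0.566 for Blnk. With all libraries these 5 differences were -0.554, -0.614, -0.251, -0.246 and -0.317. Against cko and without that library, it was -1.226 for Cd72, -0.372 for Lyn, -0.342 for Btk and -0.648 for Blnk. Replicate 1 was also the library with the higher erythroid and macrophage sums given above, and its sum of 6 marginal zone B cell genes was 407 CPM against 1025 in replicate 2 and 1317 and 1312 in wt. Of these 6 genes 0 were called between dbko and wt at 0h, and Cr2, among them, is also in the follicular B cell list. Sums of 5 NK cell genes were 8.82 and 10.7 CPM in dbko at 0h, 13.4 and 16.4 in wt and 24 and 26.8 in cko. These sums rest mostly on Prf1, which reached 26.1 CPM over the 14 libraries. Klrb1c, Nkg7, Ncr1 and Gzma each reached at most 0.846 CPM, and only 1 of the 5 genes was tested. The part of these cell types in the levels of dbko replicate 1 was not tested.

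At 6h Plcg2, Btk, Cd79b and Cd72 differed between dbko and wt. Of the 9 genes 3 were higher in dbko (Cd79b, Btk and Plcg2) and 1 lower (Cd72), with 26.7% of all genes called. Plcg2 was higher in dbko by 0.78 ± 0.12 (adjusted p = 0.00068), a call that held with any 1 library left out. Btk was higher by 0.46 ± 0.12 (adjusted p = 0.0154) and Cd79b by 0.46 ± 0.13 (0.0199), while Cd72 was lower by a log2 difference of -1.05 ± 0.27 (0.0163). Each of these 3 calls ended without either wt library at 6h (adjusted p of 0.0557 to 0.127), and also without dbko replicate 1 for Btk (0.0587) and Cd72 (0.0875) and without dbko replicate 2 for Cd79b (0.0838). A fit to these 4 libraries alone did not call Btk (0.0563) or Cd79b (0.0793). Cd79a, at 0.46 ± 0.16, missed the threshold at an adjusted p of 0.0503. Macrophage and monocyte markers (9 of 9 tested called higher in dbko than in wt at 6h) and erythroid markers (8 of 8, with sums of 218 and 96.5 CPM against 1.83 and 1.87) moved with these differences. Of 5 B-1 cell genes 3 were called higher in dbko at 6h and 0 lower, with sums of 196.6 and 188.5 CPM against 89.3 and 95.9 in wt. The part of these cell types was not tested. Of the 2 dbko libraries at 6h, replicate 1 had the higher macrophage sum (206 against 87.5 CPM). Plcg2 (511 and 469 CPM) and Btk (469 and 451) were also higher in replicate 1, and Cd79b (1613 and 1851) was higher in replicate 2. Whether these levels go with the macrophage sum was not tested.

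Between cko and wt at 6h 1 of 9 was called, Btk, higher in cko by 0.52 ± 0.12 (adjusted p = 0.0358), with 3.54% of all genes called. The call ended with any 1 of the 4 libraries left out (adjusted p of 0.0947 to 0.268) and in a fit to these 4 alone (0.0509). Cd72 was lower in cko by a log2 difference of -1.06 ± 0.27, about the size seen in dbko, and missed the threshold (adjusted p = 0.0597). It was called in a fit to these 4 libraries alone (0.00688), by DESeq2 (0.000918), with no filter on low counts (7.47e-11) and with a block for the replicate number (0.0401). It was not called with DESeq2 size factors, and with 1 library left out the Cd72 difference ran from -1.18 to -0.95. Cd79b (0.445 ± 0.128, adjusted p = 0.0791) and Cd79a (0.492 ± 0.16, adjusted p = 0.117) also stood higher in cko without being called. DESeq2 called both (0.0061 and 0.0401). Of the 9 genes 6 had an unadjusted p under 0.05 in this comparison of cko and wt. Between dbko and cko at 6h 1 of 9 was called, Plcg2, higher in dbko by 0.61 ± 0.12 (adjusted p = 0.00604, held with any 1 library left out but 0.122 in a fit to the 4 libraries alone), with 13.4% of all genes called. For Btk the dbko and cko libraries at 6h differed by -0.06 ± 0.12 (adjusted p = 0.79, 95% interval -0.32 to 0.20), and for Cd72 by 0.01 ± 0.27 (adjusted p = 0.981, 95% interval -0.58 to 0.61). The comparisons of dbko and cko with wt share the wt libraries.

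**Figure D4:**
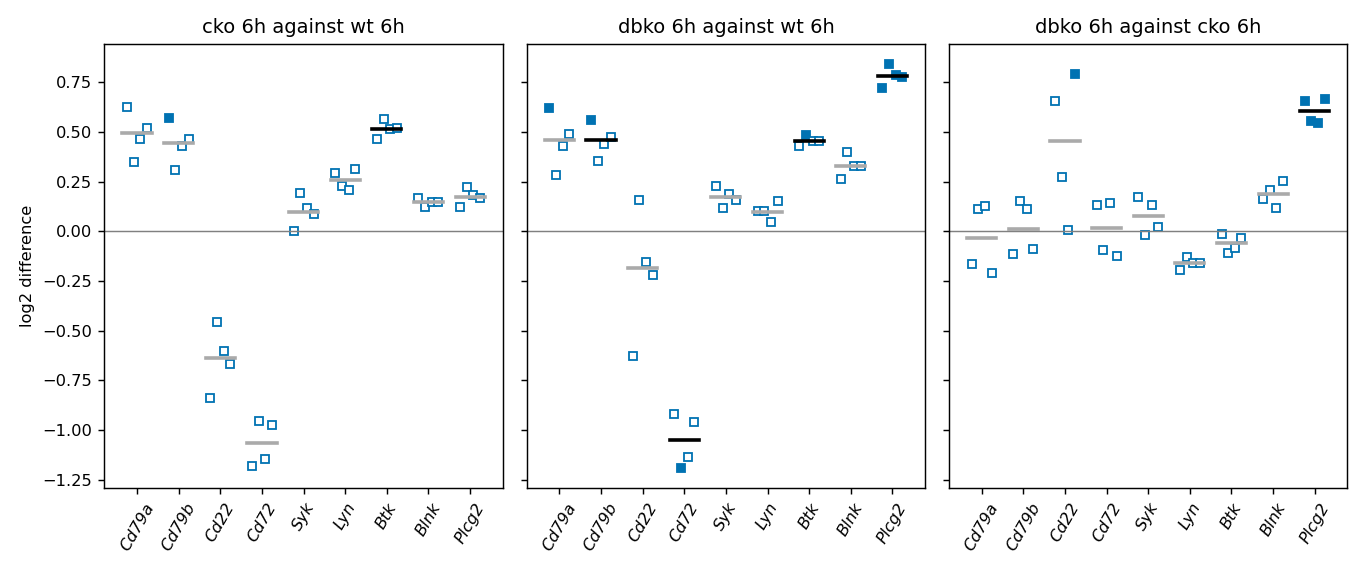
Log2 difference between genotypes at 6h for each gene, in 3 panels by pair of genotypes; lines show the value with all libraries (black where called, grey where not) and squares the value with 1 of the 4 libraries left out (filled where called). Plcg2 was called in dbko against wt and against cko whichever library was left out, and Cd72 lay near -1 in cko and in dbko against wt.

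Whether the 6h change itself differed between genotypes was tested as the difference of the changes. Against wt, the change in dbko was higher for 3 of the 9 genes and lower for 0, with 13.8% of all genes called. These were Plcg2 (0.87 ± 0.17, adjusted p = 0.00612), Btk (0.70 ± 0.17, 0.0188) and Blnk (0.65 ± 0.19, 0.0429). The Plcg2 difference held with any 1 of the 8 libraries left out, that of Btk ended with any 1 of the 4 wt libraries left out (0.0674 to 0.0792), and that of Blnk ended without 6 of the 8 (0.0876 to 0.157), among them dbko replicate 1 at 0h or 6h. With only the 8 libraries in the fit, Btk (0.074) and Blnk (0.128) were not called, and with DESeq2 size factors Blnk was not (0.051). In cko against wt 0 of 9 were called, 4 had an unadjusted p under 0.05 (Cd79a, Cd79b, Cd72 and Btk) and DESeq2 called 2, with 1.7% of all genes called. In dbko against cko 0 of 9 were called, 2 had an unadjusted p under 0.05 (Blnk and Plcg2) and DESeq2 called 1, with 0.934% of all genes called. There the Plcg2 difference was 0.67 ± 0.17 (adjusted p = 0.0983). For Syk, the change differed from that in wt by -0.04 ± 0.22 in cko (95% interval -0.51 to 0.43) and by 0.09 ± 0.22 in dbko (-0.38 to 0.56).

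The rest of the receptor pathway was read from 124 other genes in 10 lists, of which 120 were tested. In wt over 6h 14 rose and 59 fell, which is 60.8% of the 120 against 46.2% of all genes, where 2858 rose and 2972 fell. The share called was highest for the 11 inhibitory receptors and their relatives tested (0 rose and 10 fell), the 6 coreceptor genes (0 and 5) and the 13 calcium and NFAT genes (1 and 9). It was 38.1% for the 21 adaptors (2 rose and 6 fell), 46.2% for the 13 phosphatases and ubiquitin ligases (1 and 5) and 52.6% for the 19 lipid kinases and GTPase regulators (2 and 8), below, at or near the share of all genes. The adaptor Themis2 went from 215 and 224 CPM to 63.6 and 60.9 (log2 change -1.82 ± 0.12, adjusted p = 2.87e-07). The Src family kinase Fyn moved the other way from Lyn, from 66.0 and 59.98 CPM at 0h to 271 and 295 at 6h (2.17 ± 0.17, adjusted p = 1.77e-06), and was back at 78.4 and 80.1 at 27h. These were among the 4 genes of the lists with the smallest adjusted p, and both calls held with any 1 library left out.

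In cko over 6h 21 of the 120 were higher and 54 lower (62.5%, against 41.9% of all genes, 2758 higher and 2539 lower). In dbko 20 were higher and 38 lower (48.3%, against 39.6% of all genes, 2442 higher and 2562 lower). Of the 11 inhibitory receptors 0 were higher and 7 lower in cko, and 2 higher and 2 lower in dbko. Ptpn22, a phosphatase that restrains Src family and Syk kinases, rose from 64.7 and 66.2 CPM to 189 and 198 in cko and from 90.2 and 99.5 to 259 and 281 in dbko. Prkcd, a protein kinase C isoform that limits B cell survival and activation, rose in dbko from 304 and 365 CPM to 857 and 884 (1.38 ± 0.13, adjusted p = 6.67e-06). In wt at 27h against 0h 10 were higher and 62 lower (60%, against 47.6% of all genes). Between 6h and 27h in wt 21 rose and 20 fell, a share of 34.2% beside a background of 34.1%. One of them was Prkcb, the isoform downstream of phospholipase C gamma 2, which rose from 175 and 168 CPM to 381 and 362, as Plcg2 did.

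At 0h none of the 120 genes was called between cko and wt by edgeR (6 had an unadjusted p under 0.05 and DESeq2 called 2), while 6 were higher and 11 lower in dbko than in wt (14.2%, against 11.7% of all genes) and 4 higher and 6 lower than in cko (8.33%, against 9.03%), both near the background. Rasgrp3, a Ras activator that acts downstream of phospholipase C, was at 49.8 and 108 CPM in dbko against 359.7 and 359 in wt and 387 and 411 in cko. At 6h 30 were higher and 11 lower in dbko than in wt (34.2%, against 26.7% of all genes), 20 higher and 8 lower than in cko (23.3% against 13.4%), and 4 higher and 0 lower in cko than in wt (3.33% against 3.54%). The phosphatase gene Ubash3b (64.7 and 54.0 against 23.3 and 21.05 CPM), Ptpn22 (259 and 281 against 145 and 143) and the Fc receptor relative Fcrla (527 and 472 against 232 and 234) were higher in dbko than in wt at 6h. Without dbko replicate 2 at both times, more genes were called in dbko against wt at 0h and at 6h. That rise was seen among all genes tested as well as among the pathway genes. The 6h change was higher in dbko than in wt for 23 of the 120 and lower for 2 (20.8%, against 13.8% of all genes). For cko against wt and dbko against cko it was higher for 1 each (0.833%, against 1.7% and 0.934%).

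**Figure D5:**
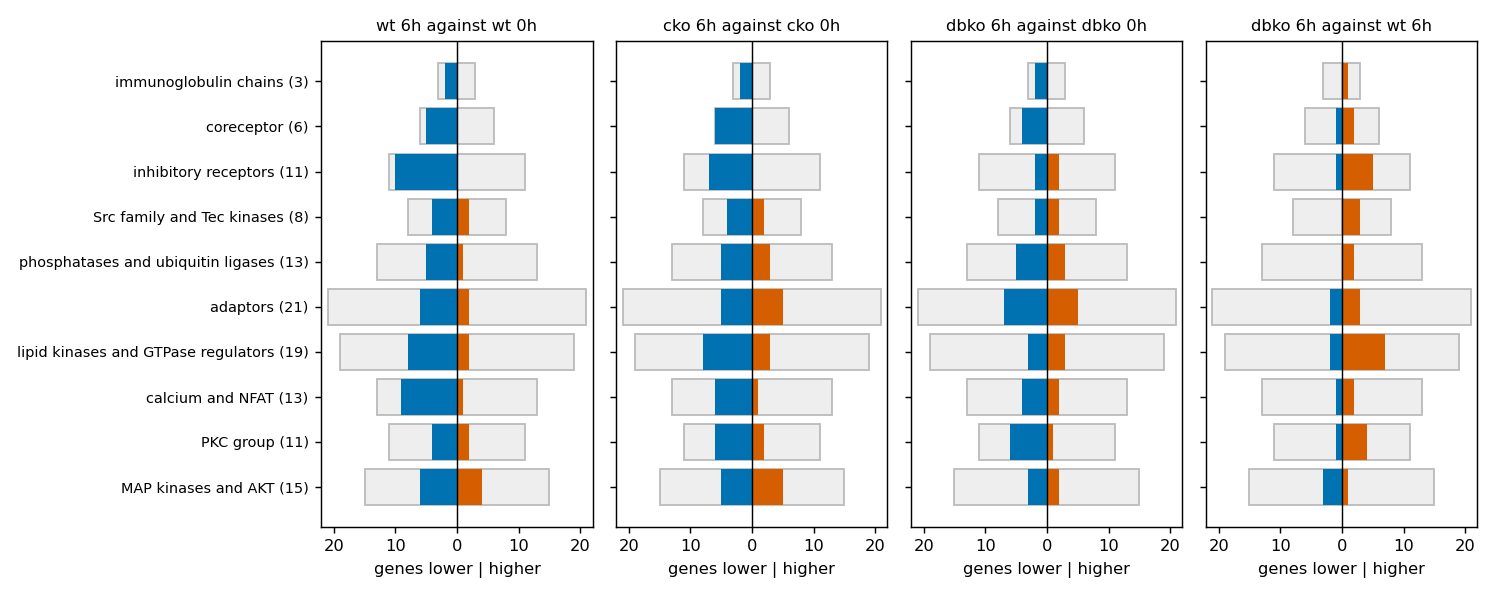
Number of genes called higher (right, orange) and lower (left, blue) in each of the 10 lists of other receptor pathway genes, in 4 comparisons, with grey boxes for the number tested (in brackets). Of the 11 inhibitory receptors, 10 were lower at 6h in wt, 7 in cko and 2 in dbko.

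Between genes, levels were compared per kilobase of exon. At 0h in wt the order of mean CPM per kilobase was Cd79a, Cd79b, Cd22, Syk, Lyn, Cd72, Plcg2, Btk and Blnk, and cko at 0h had the same order. At 6h Cd79b was first in each genotype and Syk stood below Btk, and below Lyn in wt and cko. In dbko at 6h Syk and Lyn were about level, with a ratio of Lyn to Syk of 1.055 and 0.976. The ratio of Syk to Btk per kilobase was 1.613 and 1.655 in wt at 0h and 0.762 and 0.745 at 6h, and it was 0.582 and 0.546 in cko and 0.585 and 0.655 in dbko at 6h. Blnk was last in all 7 groups. Summed over the 9 genes, the level was 8928.3 and 9076.3 CPM in wt at 0h, 5211.7 and 5303.1 at 6h, and 6036.2 and 6268.8 at 27h.

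Within a gene, the order of the groups often rested on libraries that overlapped. For Cd79a the group means ran from wt at 0h through cko and dbko at 0h, cko and dbko at 6h and wt at 27h to wt at 6h, and 2 neighbouring pairs overlapped, cko with dbko at 0h and at 6h. For Lyn the order was wt, cko and dbko at 0h, cko, dbko and wt at 6h, and wt at 27h, with 2 overlapping pairs. For Btk it was cko, dbko and wt at 6h, wt, cko and dbko at 0h, and wt at 27h, with 3 overlapping pairs. The other 6 genes had 4 overlapping pairs each of 6.

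The likeness of patterns was measured as the root mean square difference of log2 CPM, centred per gene, over the 14 libraries, among the 8675 genes whose average log2 CPM reached 3. Cd79a and Syk were the closest pair of the 9 genes (0.196) and Cd22 and Btk the farthest (1.089), while Cd79a and its partner Cd79b differed by 0.479. The genes nearest to Cd79a were D8Ertd738e (0.12) and Pax5 (0.133), and those nearest to Syk were Mbd5 (0.125) and Pax5 (0.126). Pax5 encodes a transcription factor that keeps B cell identity. Nearest to Plcg2 were Ncf4 (0.112), a subunit of the phagocyte oxidase, and Fut8 (0.118), and nearest to Btk were Zyg11b (0.108) and Srd5a3 (0.11). Lyn had the closest neighbours, Ranbp9 (0.061) and Zfp954 (0.078), and Cd79b had Vps4a (0.088) and Glud1 (0.096). For Blnk they were Tmem19 (0.107) and Ppp1r12a (0.122), for Cd22 Setbp1 (0.196) and Slc2a9 (0.217), and for Cd72 Pikfyve (0.212) and Atg16l2 (0.226).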

How the data were processed

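RNA was measured in 14 libraries of mouse follicular B cells. The deposited values are whole-number read counts for each Ensembl gene, 1 table per library, not normalized or pooled. Per the labels' protocols, RNA was reverse transcribed with poly-dT primers, and per the submitters' processing notes CASAVA 1.8.2 was used; the aligner, counter and genome build stay unnamed, not given in the sources used here. Tallies outside genes (5.21 to 11.46% of reads in no feature, 38.77 to 49.85% not unique, 0.41 to 0.49% ambiguous) stayed out of library sizes, so genes with near copies may be undercounted. The exons of Lyn and Cd22 share 248 and 479 bases with Gm26857 and Gm29439.

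Gene IDs were matched to GENCODE M21 (GRCm38, possibly another build than the authors'): 37693 of 39179 matched, with 99.56% of counts. In edgeR 4.0.16 (R 4.3.3), library sizes were adjusted by TMM, genes filtered with filterByExpr by group, and 1 robust quasi-likelihood model fitted to all 14 libraries with a mean for each group (7 residual degrees of freedom, common biological coefficient of variation 0.144). The 14 contrasts were tested two-sided with Benjamini-Hochberg adjustment over 12630 genes. The procedure was tested on simulated data. Alternatives were DESeq2 size factors, no filter, DESeq2 1.42.0, a block for the replicate number, only the groups compared, each library left out, and the dbko libraries of 1 replicate number left out at both times. Python 3.11.15 with NumPy 2.4.6 and pandas 2.3.3 gave the other values, and figures were drawn with Matplotlib 3.10.9.

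Named genes are the 9, Rel and Relb, Tesk1 for its overlap with Cd72, in each comparison up to 4 called pathway genes with the smallest adjusted p (the text describes some of these, and a few are not reported here), and the 2 genes nearest in pattern to each of the 9. The 9 genes, the lists and these rules were chosen with earlier results of these data known.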

Additional observations from a re-analysis of the deposited data

Results flagged for a closer look

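The change over 6h differed between dbko and wt for 3 of the 9 genes by the test of the difference itself (edgeR's quasi-likelihood test, Benjamini-Hochberg adjustment over all genes). For Plcg2 the difference was 0.87 ± 0.17 on the log2 scale (adjusted p = 0.00612, same direction between the replicate 1 libraries, 1.10, and the replicate 2 libraries, 0.65), and it was called with any 1 of the 8 libraries left out. For Btk it was 0.70 ± 0.17 (adjusted p = 0.0188, with 0.94 and 0.48), and it was lost with any 1 of the 4 wt libraries left out (0.0674 to 0.0792) and in a fit of only the groups compared (0.074). For Blnk it was 0.65 ± 0.19 (adjusted p = 0.0429, with 0.90 and 0.42), and it was lost without 6 of the 8 libraries (0.0876 to 0.157) and in a fit of only the groups compared (0.128). Of all genes tested 13.8% were called in this comparison.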

How the results depend on the processing

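Of the 126 changes of the 9 genes over 14 comparisons, 34 were called, 48 were called only under an alternative and 44 under none, of which 18 changed sign. DESeq2 size factors ended 1 of the 34 calls and added 1, no filter on low counts ended 2 and added 16, DESeq2 ended 0 and added 15, and a fit of only the groups compared ended 11 and added 15. Leaving out each library in turn kept 21 of the 34 throughout. A library left alone in its group was taken to vary as the rest do. The causes were not tested.

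Members called changed as follows. Only the groups compared gave 8 for wt at 27h against 0h (4 with all groups), 0 for dbko at 6h against 0h (5), 1 for cko against wt at 0h (0), 2 for dbko against wt at 6h (4), 0 for dbko against cko at 6h (1), and 4 and 1 for the 6h change of cko and dbko against wt (0 and 3). No filter gave 2 at 0h for dbko against wt and 2 for dbko against cko (0 each), 4 for cko against wt at 6h (1), 2 for dbko against cko at 6h (1), and 1 each for the 6h change of cko against wt and of dbko against cko (0 each). DESeq2 gave 1 for dbko against cko at 0h, 4 for cko against wt at 6h, and 2, 5 and 1 for the 6h change of cko against wt, dbko against wt and dbko against cko. Without dbko replicate 2 at both times there were, at 0h, 6 for dbko against wt and 7 for dbko against cko, 2 for dbko against cko at 6h, and 7 and 4 for the 6h change of dbko against wt and against cko; without dbko replicate 1 at both times the change against wt had 5. With 1 library left out the counts ran from 1 to 2 for wt at 27h against 6h, 0 to 5 and 0 to 4 for dbko against wt and cko at 0h, 0 to 1 for cko against wt, 1 to 3 for dbko against wt and 1 to 2 for dbko against cko at 6h, and 1 to 6 and 0 to 3 for the 6h change of dbko against wt and cko.

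Signs turned only for differences that were not called with all libraries. Without dbko replicate 1 at both times these were Blnk over 6h in dbko (-0.02), Cd79a (0.07), Syk (0.15) and Btk (0.00) in dbko against cko at 0h, Cd22 in dbko against cko at 6h (-0.004), and the 6h change of Cd22 in dbko against wt (-0.32) and against cko (-0.002). Without dbko replicate 2 at both times they were Cd72 over 6h in dbko (0.49), Cd22 in dbko against wt at 6h (0.16) and the 6h change of Cd72 in dbko against wt (0.10). With 1 library left out, Cd72 over 6h in dbko ran from -0.52 to 0.63, Cd79a and Syk in dbko against cko at 0h from -0.33 to 0.066 and -0.34 to 0.14, Cd22 in dbko against wt at 6h from -0.63 to 0.16, and the 6h change in dbko against wt from -0.076 to 0.71 for Cd22 and from -0.91 to 0.24 for Cd72.

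Replicate numbers follow the lanes and were not treated as pairing: of 21 pairs of groups 4 had a correlation of deviations over 0.1 (range -0.17 to 0.48). The highest, 0.483, was that of dbko at 0h with dbko at 6h, and the next was 0.158, wt with cko at 6h. The dbko replicate numbers thus went together over time, and the main tests of the dbko change over 6h did not use this. With the replicate number as a block, 0 of the 34 calls were lost and 3 gained, with 2 genes called in cko against wt at 6h in place of 1.

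Counts over the pathway lists moved as well. Over the alternatives that leave out no single library, pathway genes called ranged from 41 to 82 for wt at 27h against 6h (41), 14 to 73 for dbko at 6h against 0h (58), 0 to 24 for cko against wt at 0h (0), 4 to 60 and 4 to 63 for dbko against wt and cko at 0h (17 and 10), 4 to 12, 17 to 71 and 3 to 59 at 6h for cko against wt, dbko against wt and dbko against cko (4, 41 and 28), and 0 to 9, 10 to 61 and 0 to 44 for the 6h change in these pairs (1, 25 and 1). All genes called ranged likewise from 4001 to 7507 (4309), 1323 to 5487 (5004), 234 to 2661 (189), 416 to 4717 and 545 to 4528 (1472 and 1140), 450 to 1030, 1075 to 5647 and 190 to 4464 (447, 3370 and 1696), and 209 to 1290, 651 to 4052 and 1 to 2080 (215, 1749 and 118). The lowest dbko counts came from fitting only the groups compared and the highest mostly from leaving out dbko replicate 2 at both times.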
